A study of Mus musculus with 24 samples.

Results

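The E2F factors and pocket proteins were followed through 10 genes, the E2F transcription factor genes E2f1 to E2f8 and the pocket protein genes Rb1 and Rbl1, out of 51912 genes in each count table. The genes were taken by name as members of these families, and all 10 were found. Their measured values were not used for the choice, but earlier results of these data were known. The study asked which transcription factors act on DNA methylation around their motifs in mouse embryonic stem cells (ESCs) and in neural progenitors (NPs). RNA-seq was made with 3 libraries each of ESCs, NPs and ESCs without the TET dioxygenases (TET TKO ESCs). In a separate assay, Hi-TransMet, DNA fragments that carried a motif (WT) or its scrambled version (Sc) were inserted into the genome and the methylation of their CpGs was read by bisulfite sequencing, and the E2F1 motif was among the 30 motif pairs.

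ESCs were wild type and of strain C57BL/6 X 129S5, and NPs were made from wild type ESCs of the same strain, as cellular aggregates treated with retinoic acid that were collected without sorting. TET TKO ESCs carried the TET1/2/3 triple knockout on strain C57BL/6 X 129/sv, so that genotype and strain cannot be told apart. They were also sequenced more deeply, with 80704741 to 93210102 counts per library against 20570050 to 23976914 in ESCs and 20519702 to 22132988 in NPs, and depth cannot be told apart from genotype either. The paper calls the RNA-seq libraries biological replicates, and neither it nor the labels say whether the 3 libraries of a group came from separate cultures, so that p-values measure only the spread between these libraries.

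E2F factors bind the promoters of genes for DNA replication and cell division, most of them as a dimer with a DP protein, and pocket proteins hold them in check until cyclin-dependent kinases phosphorylate the pocket protein in late G1. E2F1, E2F2 and E2F3 are known as activators bound mainly by pRB, the product of Rb1, whereas E2F4 and E2F5 work mainly with p107, the product of Rbl1, and p130 to keep cell cycle genes low in resting cells. E2F6 lacks the pocket protein binding domain and belongs to a Polycomb complex, PRC1.6, and E2F7 and E2F8 bind DNA without a DP partner and repress E2F targets; ESCs are known for a short G1 phase in which pRB stays largely phosphorylated.

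Transcripts of the knocked-out genes were examined first, as a check of the labels. Tet1 stood at 66.0, 60.8 and 68.5 RPKM (reads per length of exon and library size, after TMM normalization over the 9 libraries) in ESC replicates 1 to 3 and at 13.2, 16.1 and 11.3 RPKM in TET TKO ESCs. Tet2 stood at 20.5, 20.3 and 16.1 RPKM in ESCs and at 2.42, 2.70 and 2.32 RPKM in TET TKO ESCs, and Tet3 at 0.746, 0.631 and 0.770 RPKM in ESCs and at 0.561, 0.617 and 0.474 RPKM in TET TKO ESCs. All 3 TET TKO libraries thus lay below all 3 ESC libraries for each TET gene, with reads left in each. Tet1 fell by 2.38 ± 0.14 (SE) on the log2 scale with an adjusted p of 7.02e-05 and Tet2 fell by 3.05 ± 0.13 with an adjusted p of 1.87e-05 (edgeR's quasi-likelihood test, adjusted by Benjamini-Hochberg), and Tet3 was too low to be tested.

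Marker genes matched the labels of the ESCs and NPs. The 8 markers of pluripotent cells summed to 2452, 2530 and 2496 RPKM in ESC replicates 1 to 3, with Dppa5a the most abundant, and to 10.97, 26.4 and 7.61 RPKM in NP replicates 1 to 3, where all 8 fell. Of 8 markers of neural progenitors 7 rose in NPs and Sox2, which ESCs also express, fell; Nes was the most abundant of them at 58.2 to 93.5 RPKM. NP replicate 2 held the largest remainder of pluripotency markers, of which Dppa5a was at 17.2 RPKM.

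Markers of other cell types did not move alike in the NP libraries. The 6 neuron markers summed to 185, 77.6 and 147 RPKM in NP replicates 1 to 3 (121 to 137 RPKM in ESCs), with Tubb3 the most abundant and none at 0 counts, and 3 of them rose and 1 fell. The 5 endoderm markers summed to 18.7, 20.1 and 22.9 RPKM (1.07 to 1.83 RPKM in ESCs), with Foxa2 the most abundant, and 3 of the 4 tested rose. The 4 mesoderm markers summed to 0.918 to 2.13 RPKM in NPs (1.75 to 2.18 RPKM in ESCs), with Tbx6 the most abundant and Mesp1 at 0 counts in replicates 1 and 3, and the 4 trophoblast markers summed to 4.07 to 6.44 RPKM in NPs (0.531 to 1.44 RPKM in ESCs), with Gata3 the most abundant and 1 of 2 tested rising. The part of other cells in the results on NPs was not tested.

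TET TKO ESCs held 2303 to 3070 RPKM of the pluripotency markers, of which Zfp42 fell. Their trophoblast markers summed to 7.05, 13.6 and 16.1 RPKM against 0.531 to 1.44 RPKM in ESCs, and Hand1 was the most abundant and rose by 4.18 ± 0.44 (log2, adjusted p of 0.000714). Their neuron markers summed to 48.5 to 92.2 RPKM, with Tubb3 the most abundant, their neural progenitor markers to 223 to 285 RPKM, nearly all of it Sox2, and their endoderm and mesoderm markers to at most 1.55 and 1.75 RPKM. The part of such cells in the comparison of TET TKO ESCs with ESCs was not tested.

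All 10 members passed the filter on low values in both comparisons (at least 1 RPKM in at least 1 library). In ESCs E2f4 had the highest level of the 10 genes, at 84.0 ± 2.75 RPKM (mean ± SD, n = 3), and E2f1 followed at 19.7 ± 2.28 RPKM. E2f3 (13.7 ± 0.521 RPKM), E2f8 (13.4 ± 1.61 RPKM) and E2f5 (13.1 ± 0.713 RPKM) came next and overlapped with each other, apart from both the genes above and those below. Rb1, Rbl1, E2f6 and E2f7 formed a lower group of neighbours that overlapped, between 5.94 ± 1.19 and 4.69 ± 0.341 RPKM, and E2f2 was lowest at 4.16 ± 0.307 RPKM. Every level was given per length of exon, which allows the genes to be compared with each other.

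The order was different in NPs. E2f4 stayed first at 61.0 ± 14.4 RPKM, E2f5 (28.8 ± 7.54 RPKM) and E2f1 (25.5 ± 3.48 RPKM) overlapped in the next places, and E2f7 was last at 5.42 ± 0.652 RPKM. E2f3, E2f6, E2f8, E2f2, Rb1 and Rbl1 lay between 14.7 and 7.87 RPKM, each overlapping with its neighbour. As in ESCs and NPs, E2f4 was highest in TET TKO ESCs, at 121 ± 21.1 RPKM, E2f5 (24.7 ± 7.16 RPKM), E2f1 (22.2 ± 3.41 RPKM) and E2f3 (17.2 ± 2.22 RPKM) followed with overlap between neighbours, and E2f2 was again lowest at 3.28 ± 0.758 RPKM.

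**Figure D1:**
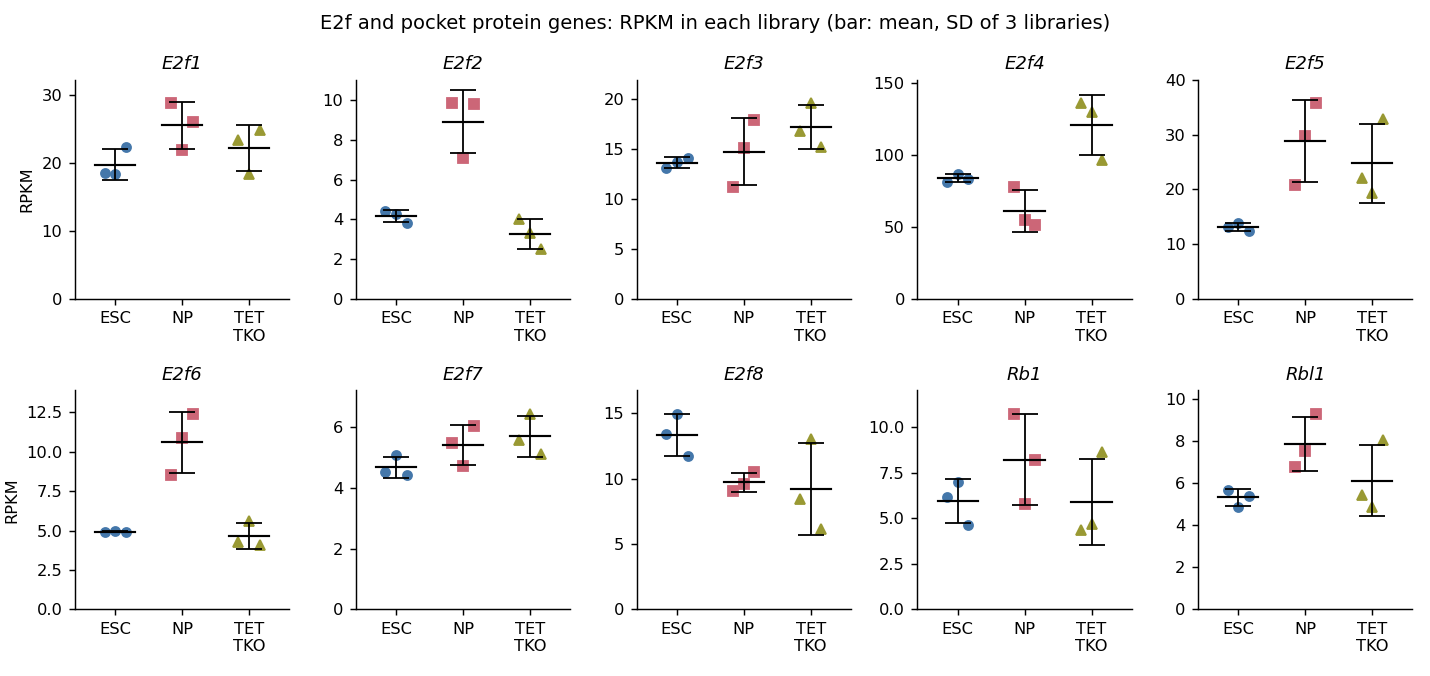
RPKM (y axis, from 0) of each of the 10 genes in the 3 libraries of ESCs (circles), NPs (squares) and TET TKO ESCs (triangles), with the mean and SD of 3 libraries. E2f2, E2f5, E2f6 and Rbl1 lay higher in all NP libraries than in all ESC libraries. The 3 TET TKO libraries spread widely for E2f5, E2f8 and Rb1.

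The activators E2f1, E2f2 and E2f3 did not move alike in NPs. E2f2, the lowest of the 10 in ESCs, was at 4.398, 4.28 and 3.82 RPKM in ESCs, at 9.85, 7.08 and 9.80 RPKM in NPs and at 4.02, 3.31 and 2.50 RPKM in TET TKO ESCs. Each NP library was thus above each ESC library, while TET TKO ESCs overlapped with ESCs. E2f2 rose in NPs by 1.09 ± 0.17 on the log2 scale, with an adjusted p of 0.000707, close to the limit of 0.001: the adjusted p was 0.00362, 0.00395 and 0.00459 without ESC replicate 1, 2 and 3, 0.00202 and 0.00298 without NP replicate 1 and 3 and 0.00107 with all 3 groups in one fit, and it ranged from 2.39e-07 to 0.00459 over all 12 alternatives. As in any bulk sample, a change in the share of cells that express a gene and a change in its RNA per cell cannot be told apart.

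E2f1, which also gave its name to the tested motif, was at 18.5, 18.3 and 22.4 RPKM in ESCs, at 28.8, 21.8 and 25.9 RPKM in NPs and at 23.3, 18.4 and 24.9 RPKM in TET TKO ESCs. ESC replicate 3 overlapped with the lowest NP library. The log2 difference of 0.36 ± 0.14 between NPs and ESCs did not pass (adjusted p of 0.0545). The difference between TET TKO ESCs and ESCs was 0.05 ± 0.15 (log2, adjusted p of 0.815). E2f3 was at 13.1, 13.7 and 14.2 RPKM in ESCs, at 11.2, 15.1 and 17.9 RPKM in NPs, which fell on both sides of the ESC libraries, and at 16.8, 19.6 and 15.2 RPKM in TET TKO ESCs; neither difference passed (log2 of 0.10 ± 0.17 and 0.21 ± 0.11).

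E2f4 and E2f5, the factors that work with p107 and p130, gave no call in either comparison. E2f4 was at 81.5, 86.9 and 83.6 RPKM in ESCs, at 77.5, 54.6 and 51.0 RPKM in NPs and at 136, 129.7 and 96.6 RPKM in TET TKO ESCs. NP replicate 1 stood near the ESC libraries and the other NP libraries well below. The log2 difference of -0.48 ± 0.16 between NPs and ESCs did not pass (adjusted p of 0.0273), but without NP replicate 1 it was -0.69 with an adjusted p of 0.000254 (range over 12 alternatives 0.000254 to 0.0842). Every TET TKO library was above every ESC library, with a log2 difference of 0.40 ± 0.13 that did not pass (adjusted p of 0.0507).

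E2f5 was at 13.1, 13.8 and 12.4 RPKM in ESCs, at 20.8, 29.8 and 35.7 RPKM in NPs and at 22.1, 19.3 and 32.9 RPKM in TET TKO ESCs. Both NPs and TET TKO ESCs were thus above every ESC library, with a wide spread within each group. The log2 difference was 1.13 ± 0.21 in NPs, just past the limit with an adjusted p of 0.00146, and 0.80 ± 0.21 in TET TKO ESCs with an adjusted p of 0.0214. In NPs the adjusted p was 0.000152 without NP replicate 1, 2.98e-06 with DESeq2 and 1.43e-05 without the filter, with a range from 2.98e-06 to 0.00892 over 12 alternatives.

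E2f6, the Polycomb-linked member, was at 4.94, 4.95 and 4.92 RPKM in ESCs, at 8.52, 10.9 and 12.4 RPKM in NPs and at 4.28, 5.62 and 4.11 RPKM in TET TKO ESCs. Its ESC libraries were the closest to each other of all members, and all NP libraries lay above them. E2f6 rose in NPs by 1.09 ± 0.16 (log2, adjusted p of 0.000459), and the adjusted p was 0.00321, 0.00297 and 0.00319 without ESC replicate 1, 2 and 3 and 0.00134 and 0.00125 without NP replicate 2 and 3 (range over 12 alternatives 7.7e-09 to 0.00321). The log2 difference of TET TKO ESCs from ESCs was -0.20 ± 0.15 (adjusted p of 0.339).

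The atypical factors E2f7 and E2f8 gave no call. E2f8 was at 13.4, 15.0 and 11.7 RPKM in ESCs, at 9.06, 9.61 and 10.5 RPKM in NPs and at 8.48, 13.1 and 6.14 RPKM in TET TKO ESCs. All NP libraries were below all ESC libraries, with a log2 difference of -0.47 ± 0.13 that did not pass (adjusted p of 0.0137), and the TET TKO libraries overlapped with ESCs (log2 of -0.66 ± 0.25, adjusted p of 0.0822). E2f7 stayed between 4.45 and 6.45 RPKM over the 9 libraries, with log2 differences of 0.20 ± 0.14 in NPs and 0.17 ± 0.12 in TET TKO ESCs.

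The pocket protein genes spread widely between libraries of 1 group. Rb1 was at 6.16, 7.01 and 4.65 RPKM in ESCs, at 10.7, 5.76 and 8.18 RPKM in NPs and at 4.37, 4.70 and 8.62 RPKM in TET TKO ESCs. TET TKO replicate 3 was above the NP mean of 8.22 RPKM, the other TET TKO libraries lay at the lower end of ESCs, and neither log2 difference passed (0.46 ± 0.25 in NPs, adjusted p of 0.136, and -0.13 ± 0.28 in TET TKO ESCs, adjusted p of 0.762). Rbl1 was at 5.69, 4.90 and 5.39 RPKM in ESCs, at 6.78, 7.53 and 9.30 RPKM in NPs and at 5.47, 4.86 and 8.04 RPKM in TET TKO ESCs. All NP libraries were above all ESC libraries for Rbl1, with a log2 difference of 0.55 ± 0.16 that did not pass (adjusted p of 0.0156), and TET TKO replicate 3 was again the highest of its group (0.08 ± 0.20, adjusted p of 0.779).

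**Figure D2:**
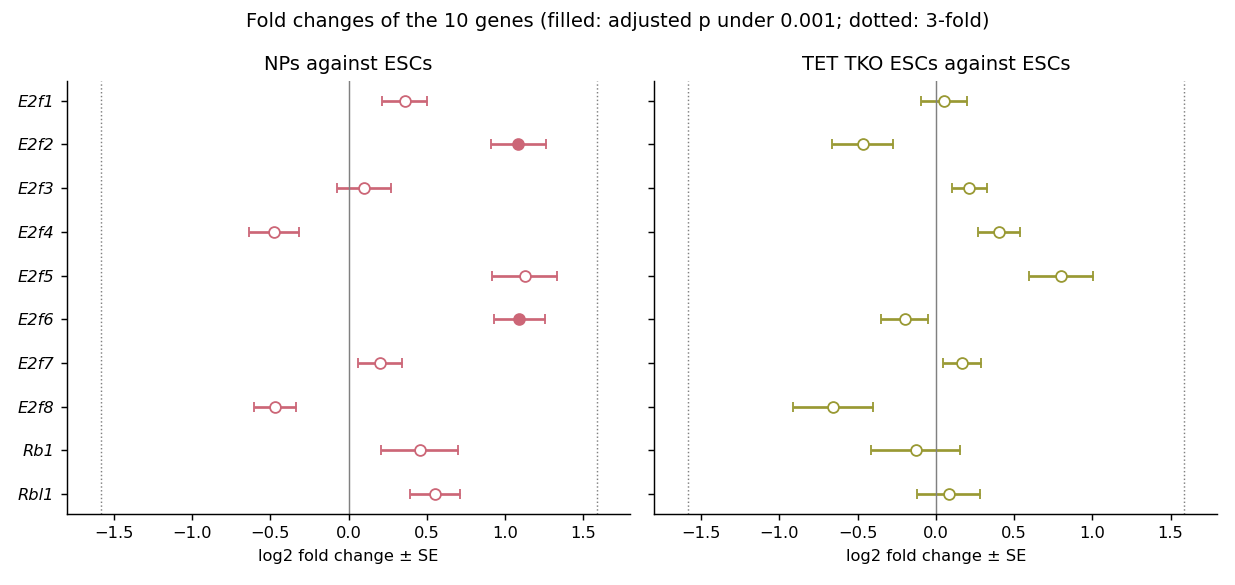
Log2 fold change with its SE (x axis) of the 10 genes (y axis) in NPs against ESCs (left) and in TET TKO ESCs against ESCs (right), where filled points passed an adjusted p of 0.001 and dotted lines mark a 3-fold change. Only E2f2 and E2f6 in NPs are filled, at log2 fold changes of 1.09 each, and no gene reaches the dotted lines.

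In NPs against ESCs 2 of the 10 members rose and 0 fell, against 17.8% and 16.2% of all 15197 tested genes that rose and fell. At the study's limits, which also ask for a 3-fold change, 0 members rose and 0 fell, against 12.4% and 9.98% of all tested genes. The members thus held a share of rises close to that of all genes, and all of their differences were under 3-fold. For 4 members all NP libraries were above all ESC libraries and for 2 all were below, which was the case for 36.3% and 35.6% of all tested genes; 7 members had an unadjusted p under 0.05 in edgeR, against 67.5% of all tested genes, and DESeq2 called 3, against 49.2%.

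In TET TKO ESCs against ESCs 0 of the 10 members rose and 0 fell with edgeR, against 1.69% and 1.58% of all 13939 tested genes, and 0 did so at the study's limits, against 0.847% and 1.29%. DESeq2 also called 0 members, against 20.5% of all tested genes, and 4 had an unadjusted p under 0.05 in edgeR, against 45.1%. For 4 members, E2f3, E2f4, E2f5 and E2f7, all TET TKO libraries were above all ESC libraries and for 0 all were below, against 32.2% and 19.6% of all tested genes. Both comparisons share the ESC libraries, and whether a member differed between NPs and TET TKO ESCs was not tested.

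The share that each class of E2F holds in the summed E2f RPKM shows these levels together. The sum was 158 ± 4.24 RPKM in ESCs, 165 ± 9.62 RPKM in NPs and 208 ± 17.8 RPKM in TET TKO ESCs. E2f4 and E2f5 held 61.0% to 62.2% of it in ESCs, 57.4%, 54.9% and 51.2% in NPs and 71.7%, 69.2% and 69.1% in TET TKO ESCs, and the 3 groups did not overlap. E2f1 to E2f3 held 23.5%, 22.4% and 25.6% in ESCs, 29.1%, 28.7% and 31.7% in NPs and 20.01%, 19.2% and 22.7% in TET TKO ESCs. E2f4 and E2f5 together thus made up most of the total in each library, and their share was lower and those of the activators and of E2f6 higher in every NP library than in every ESC library. E2f6 held 3.05% to 3.22% in ESCs, 4.98% to 7.32% in NPs and 1.94% to 2.61% in TET TKO ESCs. E2f7 and E2f8 held 10.3% to 12.4% in ESCs, 8.5% to 9.76% in NPs and 6.001% to 9.05% in TET TKO ESCs.

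**Figure D3:**
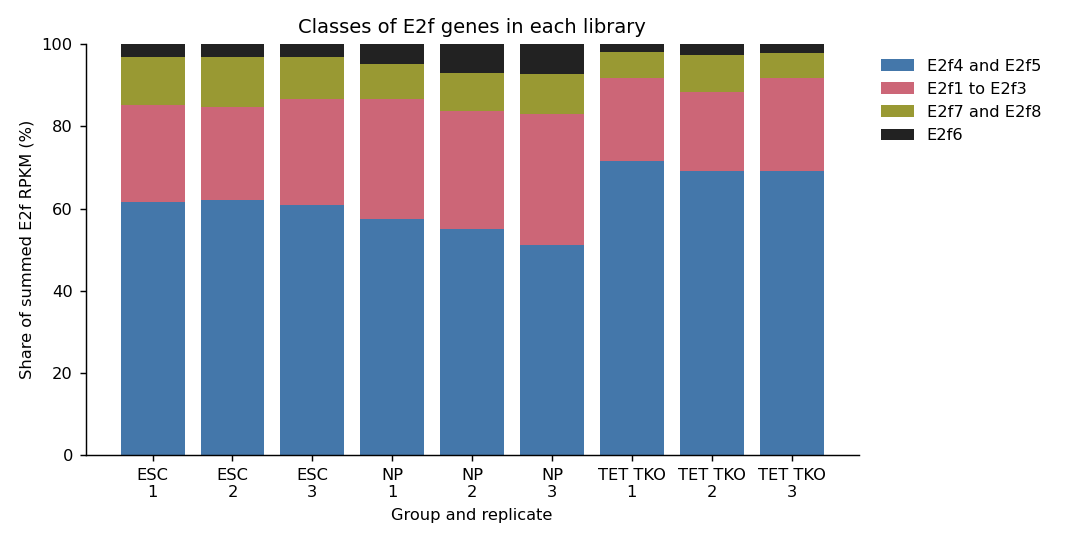
Share of the summed E2f RPKM (y axis, percent) held by 4 classes of E2f genes in each of the 9 libraries (x axis). E2f4 and E2f5 hold 51.2% to 57.4% in NPs, 61.0% to 62.2% in ESCs and 69.1% to 71.7% in TET TKO ESCs.

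Among the pocket proteins, p130 is encoded by Rbl2, which was placed with the partners of E2F. Of the summed RPKM of Rb1, Rbl1 and Rbl2, Rb1 held 43.7% ± 5.13, Rbl1 39.7% ± 5.32 and Rbl2 16.6% ± 0.791 in ESCs (mean ± SD, n = 3). In NPs Rbl2 held 11.8% ± 3.00 and in TET TKO ESCs 12.3% ± 3.12. Rbl2 had the lowest level of the 3 genes in each of the 9 libraries, between 1.35 and 2.95 RPKM.

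The rest of the pathway was followed through 91 genes in 7 lists. In NPs 32 of the 91 genes passed the test, 10 upwards and 22 downwards (35.2% of the list genes, against 33.9% of all tested genes), with a median log2 difference of -0.25 against 0.03 over all tested genes. The total dropped to 18, 18 and 20 genes without ESC replicate 1, 2 and 3. The calls over all tested genes dropped too. The count of each list in NPs has to be read against the shares of all tested genes that rose (17.8%), fell (16.2%), had an unadjusted p under 0.05 (67.5%) or were called by DESeq2 (49.2%). In the other comparison, TET TKO ESCs against ESCs, 1 of 90 tested list genes passed, 1.11% against 3.27% of all tested genes, and the median of 0.01 was close to that of all tested genes, 0.02.

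Of the DP partners and the MuvB core with its B-MYB and FOXM1 partners (11 genes), 1 fell and 0 rose in NPs with edgeR, with a median log2 difference of 0.00, and 5 of the 11 had an unadjusted p under 0.05; DESeq2 called 2 falls and 0 rises. The one that fell was Mybl2, which encodes B-MYB, an activator of mitotic genes and itself a classical E2F target. Mybl2 stood at 148, 155 and 162 RPKM in ESCs and at 10.9, 8.77 and 10.3 RPKM in NPs, far apart and the largest fall among the listed genes outside the germline targets. It fell by 3.96 ± 0.13 (log2, adjusted p of 3.44e-07), and in TET TKO ESCs it was at 176, 124 and 150.2 RPKM, around the ESC values.

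The G1 cyclins and their kinases (8 genes) changed in both directions. Ccnd2, a D-type cyclin that directs kinases to pRB, was at 2.18, 2.37 and 1.87 RPKM in ESCs and at 211, 169 and 197 RPKM in NPs, and rose by 6.48 ± 0.17 (log2, adjusted p of 2.58e-07). Cdk4, a kinase partner of the D-type cyclins, was at 175, 187 and 165 RPKM in ESCs and at 295, 276 and 334 RPKM in NPs and rose by 0.77 ± 0.12 (adjusted p of 0.000607, and 0.00134 to 0.00518 without ESC replicate 1, 2 or 3, without NP replicate 3 or with all 3 groups in one fit). Ccne1, which encodes cyclin E1 of the late G1 kinase, was at 92.5, 92.5 and 93.9 RPKM in ESCs and at 24.0, 25.4 and 25.2 RPKM in NPs and fell by 1.92 ± 0.10 (adjusted p of 1.73e-06). Ccnd2 and Cdk4 were thus higher and Ccne1 lower in NPs, and 5 of the 8 genes, among them the gene of the other cyclin E, did not pass. The list had 2 falls in place of 1 without NP replicate 1, and 3 with DESeq2. Of the same 8 genes 0 passed in TET TKO ESCs with edgeR. There 4 had an unadjusted p under 0.05, against 45.1% of all tested genes. DESeq2 called 1, Ccnd2, downwards, against 20.5% of all tested genes. Ccnd2 was at 0.692, 0.834 and 0.201 RPKM in TET TKO ESCs, below all ESC libraries. Its log2 difference was -2.02 ± 0.46 (edgeR, adjusted p of 0.014, and 0.000192 without the filter).

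CDK inhibitors (7 genes), which keep these kinases from pRB, were called upwards where they were called in NPs: 5 rose, 0 fell and 2 did not pass, with a median log2 difference of 1.36 and 6 of 7 at an unadjusted p under 0.05 in edgeR (DESeq2 called 6 rises and 0 falls). The number of rises was 2 without ESC replicate 1, 2 or 3 and 3 without NP replicate 3. Over all tested genes 17.8% rose, 67.5% had an unadjusted p under 0.05 and DESeq2 called 49.2%, and the rises also dropped without an ESC library. Cdkn1c, which encodes p57, was at 8.78, 9.29 and 7.52 RPKM in ESCs and at 123, 53.5 and 65.9 RPKM in NPs and rose by 3.23 ± 0.31 (adjusted p of 3.86e-05). Cdkn2c, which encodes p18, was at 0.332, 0.222 and 0.303 RPKM in ESCs and at 2.24, 1.65 and 1.27 RPKM in NPs and rose by 2.56 ± 0.34 (adjusted p of 0.000252, and 0.00167, 0.00202 and 0.00182 without ESC replicate 1, 2 and 3).

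Cdkn2a, which encodes p16 and ARF, was the only gene of the 7 lists that passed in TET TKO ESCs in the main edgeR fit. DESeq2 called 16 of the 90, against 20.5% of all tested genes. Cdkn2a was at 4.17, 3.79 and 2.74 RPKM in ESCs, at 3.68, 10.2 and 3.31 RPKM in NPs and at 33.6, 20.04 and 17.6 RPKM in TET TKO ESCs. All TET TKO libraries were several times above all ESC libraries, and Cdkn2a rose by 2.62 ± 0.30 (log2) with an adjusted p of 0.00096, just inside the limit. The log2 difference was 2.28 to 2.79 over 13 alternatives, but the adjusted p rose past the limit in most of them: it was 0.00601, 0.00647 and 0.00576 without ESC replicate 1, 2 and 3, 0.00222 and 0.00207 without TET TKO replicate 1 and 2, 0.00113 without TMM, 0.0021 with all 3 groups in one fit, and 0.00101 both with at least 10 counts in every library and with TET TKO counts thinned to the depth of ESCs. The methylation of Cdkn2a was not tested. Cdkn1c was lower in TET TKO ESCs but did not pass in the main fit (log2 of -1.49, adjusted p of 0.00378). Other edgeR fits called it downwards. Its adjusted p was 0.000211 without the filter (log2 of -1.38) and 0.000962 with a replicate block (log2 of -1.53).

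The 28 E2F targets of the G1/S transition, genes of replication licensing, nucleotide supply and chromatin assembly, changed downwards where they changed: 7 fell and 0 rose in NPs with edgeR, with a median log2 difference of -0.31, and 11 had an unadjusted p under 0.05 (DESeq2 called 9 falls and 0 rises). Beside the 25.0% of the list that was called stand 33.9% of all tested genes, and beside the 11 of 28 stand 67.5% of all tested genes at an unadjusted p under 0.05. Whether the list differs from all genes was not tested. Orc1, a subunit of the origin recognition complex, was at 36.4, 35.8 and 35.9 RPKM in ESCs and at 7.02, 8.80 and 8.77 RPKM in NPs and fell by 2.15 ± 0.13 (adjusted p of 3.84e-06). Mcm10, a replication factor, was at 34.8, 36.8 and 34.9 RPKM in ESCs and at 12.7, 13.1 and 13.3 RPKM in NPs and fell by 1.46 ± 0.10 (adjusted p of 6.28e-06). These levels were steady within each group, yet 21 of the 28 targets did not pass, and the number that fell was 3, 3 and 4 without ESC replicate 1, 2 and 3. Of the 28 targets 0 passed in TET TKO ESCs with edgeR. There 8 had an unadjusted p under 0.05, against 45.1% of all tested genes. DESeq2 called 2 upwards and 1 downwards, against 20.5% of all tested genes called.

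Of the 20 genes of G2 and mitosis, 5 fell and 1 rose in NPs, with a median log2 difference of -0.39. The falls were 2, 2 and 3 without ESC replicate 1, 2 and 3, 3 without NP replicate 2, 3 without TMM and 9 with DESeq2. Cdc25b, a phosphatase that activates the mitotic kinase, was at 11.2, 10.5 and 12.2 RPKM in ESCs and at 84.7, 43.4 and 52.0 RPKM in NPs and rose by 2.40 ± 0.24 (adjusted p of 5.19e-05). Bub1b, a spindle checkpoint kinase, was at 70.4, 67.3 and 98.3 RPKM in ESCs and at 33.8, 37.2 and 30.7 RPKM in NPs and fell by 1.23 ± 0.16 (adjusted p of 0.000208, and 0.00128 and 0.00147 without NP replicate 1 and 3). Nek2, a centrosome kinase, was at 31.0, 31.3 and 30.4 RPKM in ESCs and at 14.7, 15.4 and 16.6 RPKM in NPs and fell by 1.0 ± 0.10 (adjusted p of 6.35e-05). The list thus held changes in both directions in NPs. In TET TKO ESCs 0 of the 20 passed with edgeR. There 3 had an unadjusted p under 0.05, against 45.1% of all tested genes. DESeq2 called 1 in each direction, against 20.5% of all tested genes called.

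The partners of E2F6 in PRC1.6 (12 genes) changed in both directions in NPs, where 2 rose and 5 fell. Their median log2 difference was -0.74. Of the 12 genes, 11 had an unadjusted p under 0.05, against 67.5% of all tested genes. The falls were 3 without ESC replicate 1 or 2 and 7 with all 3 groups in one fit. DESeq2 called 3 rises and 7 falls, against 49.2% of all tested genes called. Yaf2 and Ring1, subunits shared with other Polycomb complexes, were at 3.35 to 3.64 and 2.97 to 3.33 RPKM in ESCs and at 21.6 to 27.2 and 10.8 to 13.5 RPKM in NPs, and rose by 2.83 ± 0.16 (adjusted p of 3.17e-06) and by 1.92 ± 0.16 (adjusted p of 1.7e-05). L3mbtl2, which is particular to PRC1.6, was at 49.98, 53.7 and 47.3 RPKM in ESCs and at 9.51, 9.95 and 9.96 RPKM in NPs and fell by 2.37 ± 0.11 (adjusted p of 1.01e-06). Mga, the DNA-binding scaffold of the complex, was at 28.6, 27.2 and 27.4 RPKM in ESCs and at 10.2, 9.88 and 10.8 RPKM in NPs and fell by 1.44 ± 0.10 (adjusted p of 8.62e-06). E2f6 thus rose while the transcripts of both of these partners fell. In TET TKO ESCs 0 of the 12 passed with edgeR. There 9 had an unadjusted p under 0.05, against 45.1% of all tested genes. DESeq2 called 3 upwards and 1 downwards, against 20.5% of all tested genes called.

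Germline genes known as targets of E2F6 (5 genes) were lower in NPs, where 3 fell and 0 rose with edgeR as with DESeq2, all 5 had an unadjusted p under 0.05, and the median log2 difference was -2.70. The falls were 2, 2 and 1 without ESC replicate 1, 2 and 3. They were 2, 5 and 2 without NP replicate 1, 2 and 3, 2 without TMM and 5 without the filter. Smc1b, a meiotic cohesin subunit, was at 8.47, 7.09 and 14.3 RPKM in ESCs and at 0.337, 0.968 and 0.363 RPKM in NPs and fell by 4.16 ± 0.45 (adjusted p of 8.33e-05). Tuba3a, a testis alpha-tubulin whose reads may be shared with the near-identical Tuba3b, was at 15.6, 14.4 and 22.9 RPKM in ESCs and at 0.311, 2.43 and 0.4003 RPKM in NPs. Tuba3a fell by 4.07 ± 0.67 (adjusted p of 0.000808, and 0.0025, 0.00192 and 0.00423 without ESC replicate 1, 2 and 3 and 0.00258 and 0.0034 without NP replicate 1 and 3, and 0.00122 without TMM). For both genes NP replicate 2, the library with the most pluripotency markers, was the highest of the NP libraries; the part of remaining ESCs in these values was not tested. Of the 5 genes 0 passed in TET TKO ESCs with edgeR. There 1 had an unadjusted p under 0.05, against 45.1% of all tested genes. DESeq2 called 1, downwards, against 20.5% of all tested genes called.

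**Figure D4:**
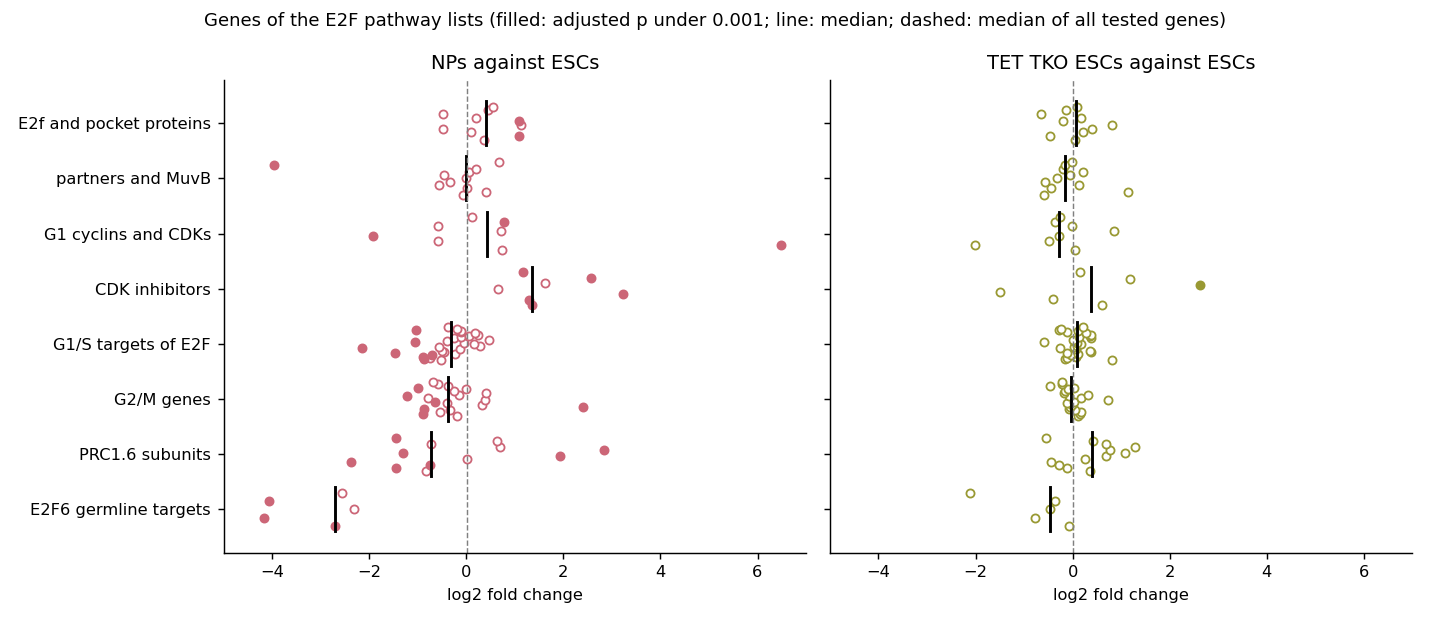
Log2 fold changes (x axis) of the 10 members and of the genes of 7 pathway lists (y axis) in NPs against ESCs (left) and TET TKO ESCs against ESCs (right), with 1 point per gene, filled where the adjusted p was under 0.001, black lines at the median of each list and a dashed line at the median of all tested genes. In NPs 32 of 91 list genes are filled, in TET TKO ESCs 1 of 90.

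E2F genes are themselves known E2F targets, and members that rose or stayed level can be set beside the letters of their promoters. A promoter of 300 bases (250 before and 50 after the gene start, RefSeq, GRCm38.p6) was at hand for 7 of the 10 members, with 9 promoters in all, and none was at hand for E2f4, E2f5 and Rb1. The letters TTTCGCGC, TTTGGCGC, TTTCCCGC and TTTGCCGC, forms of the E2F consensus, were searched on both strands and were found in 744 of 32851 promoters (2.26%). Of the 9 promoters of members 4 held a match (44.4%), each of another gene: E2f2, which rose in NPs, and E2f3, E2f7 and Rbl1, which gave no call. The second promoters of E2f2 and of E2f3 held none. The matches are shown with the bases around them, in the direction of transcription and with the match in capitals, to show which of the spellings each holds.
E2f2: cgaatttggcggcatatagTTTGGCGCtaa
E2f3: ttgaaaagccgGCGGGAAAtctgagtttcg
E2f7: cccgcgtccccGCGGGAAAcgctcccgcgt
Rbl1: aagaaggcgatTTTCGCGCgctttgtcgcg
The windows lie at chr4:136172294-136172323 (E2f2, plus strand), chr13:29986056-29986085 (E2f3, minus strand), chr10:110745230-110745259 (E2f7, plus strand) and chr2:157204534-157204563 (Rbl1, minus strand). Those of E2f3 and E2f7 hold TTTCCCGC on the opposite strand. The promoters of E2f1, E2f6 and E2f8 held none of these letters, which says nothing about the factor. A match is a description of the sequence, and binding was not tested.

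In the files E2f2 (ENSMUSG00000018983) spans chr4:136172394-136196057 on the plus strand and E2f6 (ENSMUSG00000057469) chr12:16810963-16839742 on the plus strand (GRCm38), and neither shares exon bases with another gene. E2f1 (ENSMUSG00000027490) lies at chr2:154559407-154569892 and Rb1 (ENSMUSG00000022105) at chr14:73183673-73325822, both on the minus strand. Of the exon bases of Rbl2 21.0%, of Rb1 14.9% and of E2f8 11.2% are shared with genes of the opposite strand, as are 30.7% of Cdkn1c, 19.7% of Cdk4, 17.2% of L3mbtl2 and 10.8% of Orc1; reads were counted without strand, so that reads from these bases cannot be assigned and the values of these genes are less certain.

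The genes whose pattern over the 9 libraries was most like that of E2f1 were sought among 15591 genes tested in either comparison, by the root mean square difference of log2(RPKM + 1) after centring. Mboat2 (0.06), Lingo3 (0.09) and Gnaz (0.09) were closest to E2f1. Each had, like E2f1, its highest value in NP replicate 1. For Rb1 the closest were Epm2a (0.17), Kcnh1 (0.17) and Ptpdc1 (0.19), which also had their highest value in NP replicate 1 and a higher value in TET TKO replicate 3 than in the other TET TKO libraries. The nearest genes of Rb1 lay farther off than those of E2f1, and all 6 are low, at most 5.17 RPKM.

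The E2F1 motif in the Hi-TransMet pools asked whether a fragment with this motif is less methylated than its scrambled version. Fragments were inserted into ESCs unmethylated (-SssI) or after methylation in vitro by the M.SssI enzyme (+SssI), and for +SssI also into TET TKO ESCs. The NP pools are ESC pools with inserted fragments that were then differentiated, not separate insertions. In each pool 25 CpGs of the fragment had at least 10 reads in both versions. The columns of each pool carry numbers, called runs here, and neither the labels nor the paper say whether a number marks a sequencing run, a technical or a biological replicate. For ESCs -SssI and for NPs +SssI 2 samples, 1 of them titled with a capillary sequencer, share the same table, and its runs cannot be assigned to them. Reads were summed over runs, as the paper pooled its replicates, so that Fisher's exact test compares pooled libraries, and intervals cover counting error only. Intervals of summed CpG reads are too narrow even for that, because a read spans several CpGs and counts once for each. For the same reason the CpGs counted as lower are not independent of each other. Percentages of single runs were summed over all CpGs that a version had reads of, and these CpGs can differ between WT and Sc. The result in every pool has to be read against the other motifs, many of which also had lower CpGs.

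In ESCs -SssI the E2F1 fragment was 58.8% methylated at WT (95% Wilson interval 57.5% to 60.2%, 5138 CpG reads) and 70.3% at Sc (68.5% to 72.1%, 2602 CpG reads). At WT 11 of 25 CpGs were lower than at Sc (adjusted p under 0.05 and a difference of at least 10 percentage points) and 3 were higher, and 11 of 25 is 44.0%, next to 44.3% of the CpGs of all motif pairs. With reads summed over runs 13 of the 30 pairs had more lower CpGs, but 560 of the Sc reads came from run 3, at 5.18% methylated. Within runs (Cochran-Mantel-Haenszel, at least 10 reads of both versions in a run), 16 of 20 CpGs were lower and 2 higher, and 35.0% of the CpGs of 28 motif pairs were lower. The CpGs inside the motif were 55.7% and 39.8% methylated at WT (309 reads each) and 71.3% and 73.2% at Sc (150.0 and 149 reads).

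In ESCs +SssI it was 52.3% at WT (51.1% to 53.5%, 6407 CpG reads) and 76.1% at Sc (75.3% to 76.9%, 10617 CpG reads), and 20 of 25 CpGs were lower, 80.0% against 47.8% over all motif pairs. This was the largest difference of the E2F1 motif among the 5 pools, but most WT reads came from run 4 and most Sc reads from run 5. Run 4 gave 34.1% at WT (3768 CpG reads) against 88.97% at Sc (290 CpG reads). Run 5 gave 78.3% at WT (2632 CpG reads) against 75.7% at Sc (10327 CpG reads). The summed difference thus mixes the motif with the run. Compared within runs, 6 of the 25 CpGs were lower and 5 higher (24.0% lower, against 39.4% over the CpGs of 29 motif pairs), and 18 of the 25 rested on run 5 alone. What differed between the runs was not tested.

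In TET TKO ESCs +SssI it was 92.1% at WT (91.2% to 92.9%) and 95.4% at Sc (94.7% to 96.0%), and 12 of 25 CpGs were lower (48.0%, against 20.2% over all motif pairs), with differences of -10.5 to -32.7 points. Another 2 were higher. Within runs 12 CpGs were also lower and 2 higher, but all 12 rested on run 10 alone. Runs 9, 10 and 11 of this pool gave differences of 5.83, -5.59 and -0.557 points over whichever CpGs each run covered. For 18 of the 25 CpGs only run 10 had 10 reads of both versions. Runs 9 and 11 can therefore not be set against run 10 at these CpGs. Both fragments were thus nearly fully methylated, and 6 of the 30 pairs had more lower CpGs. In NPs -SssI it was 85.2% at WT (84.5% to 85.8%) and 91.4% at Sc (89.9% to 92.6%), and 9 of 25 CpGs were lower (36.0%, against 30.4%) and 1 higher. In NPs +SssI it was 85.9% at WT (85.5% to 86.3%) and 82.4% at Sc (81.6% to 83.1%), and 0 of 25 CpGs were lower and 3 higher, against 35.6% lower over all motif pairs.

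The NP pools also depended on their runs. In NPs +SssI run 1 gave 30.9% at WT (1491 CpG reads) against 82.7% at Sc (4178 CpG reads), while run 2, with 13563 CpG reads at WT and 247 at Sc, gave 89.3% against 83.8%. Run 11, with 180 and 1826 CpG reads, gave 83.3% against 81.3%. Other runs held reads of nearly 1 version only. Runs 9 and 10 had 8487 and 9804 CpG reads at WT and 0 and 7 at Sc. Run 8 had 0 at WT and 4699 at Sc. Within runs 20 of 25 CpGs were lower in place of 0 and 2 higher, against 32.4% lower over the CpGs of 21 motif pairs, but 18 of the 20 rested on run 1 alone. In NPs -SssI no CpG had 10 reads of both versions in any run, so nearly all reads of WT and Sc came from different runs, and the motif and the run cannot be told apart. In ESCs -SssI runs 1, 2, 4 and 5 gave differences between WT and Sc of -28.5, -23.9, -6.50 and -25.0 points, of which run 2 had 40 and run 4 had 33 Sc CpG reads. Run 3, with 91 WT CpG reads at 71.4% and 560 Sc CpG reads at 5.18%, gave 66.3 points. Such differences of single runs can also hold differences between the CpGs covered, most of all where WT and Sc had unlike numbers of reads.

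**Figure D5:**
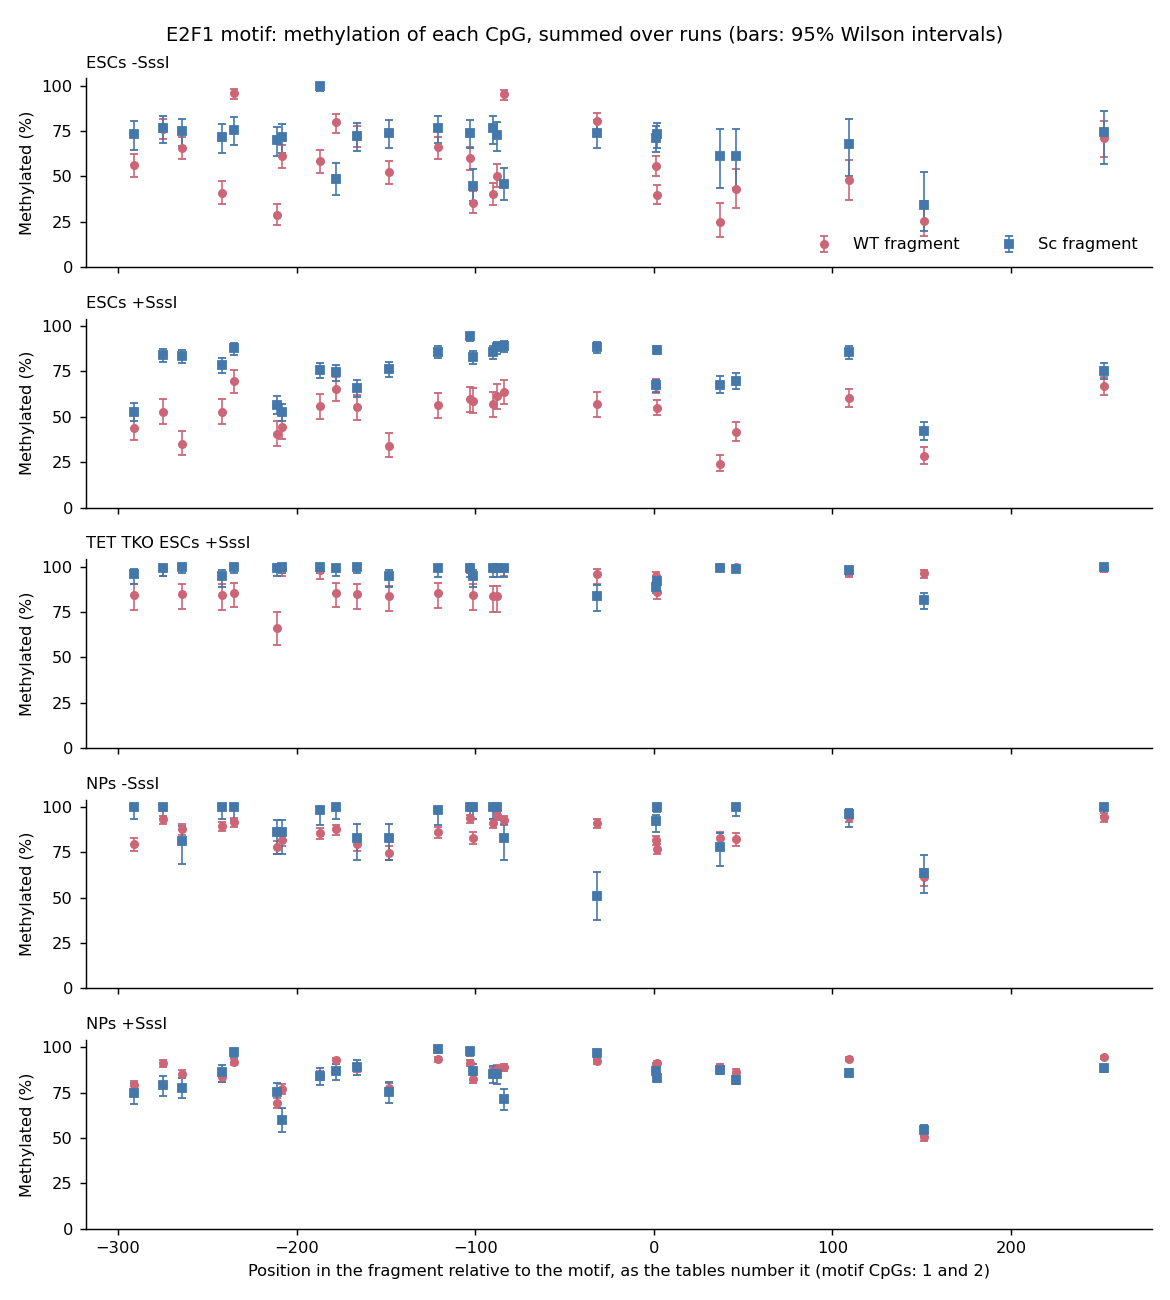
Methylation in percent (y axis) of each of 25 CpGs at the WT (circles) and Sc (squares) fragments of the E2F1 motif against the position in the fragment (x axis), in 5 pools, with 95% Wilson intervals from reads summed over runs. WT lies below Sc at 25 of 25 CpGs in ESCs +SssI and at 9 of 25 in NPs +SssI.

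The data on E2F1 itself join at this point: its transcript was present at 18.3 to 28.8 RPKM in all 9 libraries, and no test of its level passed. With reads summed over runs, 20 of 25 CpGs at its motif were lower at WT in ESCs +SssI and 0 of 25 in NPs +SssI, but within runs 6 and 20 were, so that the order of the cell types depends on how runs are treated. Binding of E2F1 to the fragment was not tested.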

How the data were processed

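RNA-seq reads were trimmed (Trimmomatic 0.38), aligned to GRCm38 with STAR 2.6.1b and counted over exons without strand with featureCounts 1.6.2 by the authors, per the file headers and the labels, and the counts were deposited per gene and library; the column of exon lengths (in bases) is also the deposited one. For Hi-TransMet the authors trimmed with Trim Galore 0.4.4, mapped with Bismark 0.20.0, removed duplicates by molecular identifier and deposited, for every CpG and numbered column (called a run here), how many reads there were and how many were methylated. What the numbers stand for is not stated, and they may mark replicates. The deposited tables of methylation percentages and those of a separate knockdown experiment were left out.

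From these, 51633 of 51912 gene IDs were given symbols, and RPKM was computed with TMM library sizes. Differences were tested with edgeR 4.0.16 (TMM, glmQLFit, glmQLFTest, R 4.3.3) on genes with at least 1 RPKM in at least 1 library of the 2 groups compared, with Benjamini-Hochberg adjustment over all of them; rose and fell mean an adjusted p under 0.001, and the SE is the fold change over the root of F. Motif CpGs were tested with Fisher's exact test (scipy 1.17.1, two-sided), adjusted over the CpGs of 30 motif pairs in a pool. The scripts were tested on simulated data. Alternatives were library sizes alone, DESeq2 1.42.0, other filters, all 3 groups in one fit, a replicate block, leaving out each library, thinned counts, coverage minimums of 20 and 50 reads, and comparison within runs, with the difference averaged over runs by Mantel-Haenszel weights.

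The members and lists were chosen with earlier results of these data known. Genes named are the members, the TET genes, the 2 largest rises and 2 largest falls at an adjusted p under 0.001 of each list and comparison (mean of at least 1 RPKM in the higher group), and the 3 genes closest to E2f1 and to Rb1. Outside this rule are Rbl2, as the third pocket protein gene, Tuba3b, as a near copy of Tuba3a, and single markers of cell types.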

Additional observations from a re-analysis of the deposited data

How the results depend on the processing

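Members called in NPs (2) were 3 with DESeq2 and without the filter, 1 (a rise) with all 3 groups in one fit, and 0 to 3 when 1 library was left out (rises 0 to 2, falls 0 to 1, the 1 fall being E2f4 without NP replicate 1). Replicate numbers did not pair the NP with the ESC samples: deviations of same-numbered libraries correlated at -0.06, 0.02 and -0.12. For TET TKO ESCs they correlated at -0.09, 0.35 and 0.24, and libraries of unlike number at -0.43 to 0.21, which leaves pairing unsettled there. The block gave 472 rises and 436 falls over all tested genes in TET TKO ESCs, in place of 236 and 220. With a replicate block, 1 member was called in NPs (E2f6, 1 rise; E2f2 had an adjusted p of 0.00129) and 27 of the pathway genes (not Cdk4, at 0.0021), and 5 pathway genes were called in TET TKO ESCs.

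Pathway genes called in NPs (32) were 46 with DESeq2, 42 without the filter and 18 to 34 when 1 library was left out. Over all tested genes the rises in NPs dropped from 2702 to 1538, 1658 and 1785 and the falls from 2455 to 1394, 1489 and 1578 without ESC replicate 1, 2 and 3. In TET TKO ESCs the 1 call (Cdkn2a) became 0 with library sizes alone, with at least 10 counts in every library, with all 3 groups in one fit and with thinned counts, 16 with DESeq2, 9 without the filter, and 0 to 2 when 1 library was left out. The cause was not tested. The members stayed at 0 calls in TET TKO ESCs under all 13 alternatives.

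Within runs, 20 E2F1 motif CpGs were lower in NPs +SssI in place of 0 (18 of them from run 1 alone), 12 as before in TET TKO ESCs +SssI (all from run 10 alone) and 6 in ESCs +SssI in place of 20; NPs -SssI had no run with enough reads of both. Coverage minimums of 20 and 50 reads gave the same counts, but for 12 in place of 11 in ESCs -SssI at 20 reads. An equal count need not hold the same CpGs. In ESCs -SssI the lower CpG at position 37 had 31 Sc reads, too few for the minimum of 50. Of 749 fold changes of named genes 702 kept their side of the limit, 38 fell short and 9 passed in addition. The sign turned in 15, 0 of them of a gene called by edgeR in that comparison. Without division by length (CPM) 18 of 30 ranks of members moved; without TMM none did.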
